A study of Mus musculus with 24 samples.

Results

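The genes described are 10 markers and regulators of the surface ectoderm of the mouse limb bud and of its apical ridge: Trp63, Krt5, Krt14, Sfn, Cdh1, Epcam, Grhl2, Sp6, Sp8 and Tfap2a. They were chosen by name from 21883 protein-coding genes, and every H3K27ac peak within the gene or 50 kb of either end of it was taken. H3K27ac, acetylation of lysine 27 of histone H3, is found at active promoters and enhancers. Chromatin immunoprecipitation with sequencing located it in limb buds, and the deposited files give called peaks. There were 4 groups with 1 library each: control limb buds at embryonic day E11.5, control limb buds at E12.5, Sox9null limb buds at E11.5 and Sox9cKO limb buds at E12.5. The labels do not give the strain, the Sox9 alleles, how and in which cells Sox9 was removed, what the controls carried, or whether embryos, forelimbs and hindlimbs were pooled. The libraries of other marks and the inputs, 20 of 24 samples, were not analysed here.

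The limb bud is a core of mesenchyme under a thin sheet of ectoderm. Along the tip the ectoderm thickens into the apical ridge, which secretes FGF signals that keep the mesenchyme beneath it growing. Trp63, Tfap2a and Grhl2 encode transcription factors of the surface epithelium, Sp6 and Sp8 encode zinc finger factors needed to form the ridge, and Cdh1 and Epcam encode epithelial adhesion proteins. Krt5 and Krt14 encode the keratin pair of basal epidermis, and Sfn encodes the 14-3-3 protein of stratified epithelium. In a whole limb bud these cells are few, and in bulk samples fewer cells of a type and less acetylation per cell cannot be told apart.

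The lists held 28419 to 36937 peaks over 52.0 to 66.7 Mb, and their depth in reads is unknown. For the lists from Sox9-deficient limbs, each deposited file name carries the genotype and stage of the other sample's title. The titles were followed, each list is called by its label, and comparisons of a deficient with a control list are given both ways. Each peak carries the authors' own score, used only to place it within its list as a percentile, where 100 is the top. Many peaks share the score 3100, and their shared place is percentile 97.4, 97.6, 98.6 and 95.8, so such values are ties and not an order among lists. Values in sets of 4 give the E11.5 control first, then the E12.5 control, the list labelled Sox9null and last the list labelled Sox9cKO. Over the whole genome the lists held 36045, 32821, 28419 and 36937 peaks, with median widths of 1141, 1707, 1778 and 1332 bp. The first and the last list thus had more and narrower peaks than the others, and the part of this in the values below was not tested. With 1 library per group no difference between groups has a replicate check and none was tested. The limb label held against its markers, since 14 of 15 limb mesenchyme genes had a peak within 1000 bp of a gene end in every list. The exception, the forelimb regulator Tbx5, had 32.3, 3.76, 0 and 32.6 kb of peaks in its window, high in the first and the last list and low in the others. Of the hindlimb regulators, Tbx4 had the opposite order, with less in the first and the last list, as did 16.0% of all genes. Pitx1 did not have it. The windows held 44.3, 55.9, 61.0 and 50.4 kb for Tbx4 and 16.4, 18.3, 18.3 and 19.0 kb for Pitx1. Both genes had peaks at the tied score in every list. Peaks covered 96.6, 81.3, 55.8 and 54.3% of Sox9 itself.

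The promoters below carry the starts of the members where marking differed between lists, or, for Tfap2a, where the best-scored promoter peak lay. They are RefSeq sequences on GRCm38 (mm10), from 250 bp before to 50 bp after an annotated start, written along the gene. Krt5 lies at chr15:101712856-101713155 (minus strand), Epcam at chr17:87635729-87636028 (plus strand), Sp8 (the second of 3 annotated starts) at chr12:118846983-118847282 (plus strand) and Tfap2a (the second of 2 annotated starts) at chr13:40733746-40734045 (minus strand). Capitals mark motif matches on either strand. The core of the Grainyhead-like site was searched as ACCGGT. The site of AP-2 factors, the family of the Tfap2a product, was searched as GCCNNNGGC and occurs in 19.9% of promoter windows. The site of SP factors such as Sp6 and Sp8 was searched as GGGCGG. The TATA box was searched as TATAAA and occurs in 12.6% of windows.
Krt5: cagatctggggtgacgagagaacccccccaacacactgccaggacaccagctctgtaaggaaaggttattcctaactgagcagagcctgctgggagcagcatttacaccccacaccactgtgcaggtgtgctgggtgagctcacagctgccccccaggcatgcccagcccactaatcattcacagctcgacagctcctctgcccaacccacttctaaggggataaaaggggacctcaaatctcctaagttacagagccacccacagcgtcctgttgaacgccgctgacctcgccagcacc
Epcam: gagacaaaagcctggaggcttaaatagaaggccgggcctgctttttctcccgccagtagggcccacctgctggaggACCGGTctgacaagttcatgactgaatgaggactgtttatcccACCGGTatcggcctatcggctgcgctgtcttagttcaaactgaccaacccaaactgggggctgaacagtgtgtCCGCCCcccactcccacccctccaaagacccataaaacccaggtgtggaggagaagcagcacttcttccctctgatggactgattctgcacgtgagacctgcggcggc
Sp8: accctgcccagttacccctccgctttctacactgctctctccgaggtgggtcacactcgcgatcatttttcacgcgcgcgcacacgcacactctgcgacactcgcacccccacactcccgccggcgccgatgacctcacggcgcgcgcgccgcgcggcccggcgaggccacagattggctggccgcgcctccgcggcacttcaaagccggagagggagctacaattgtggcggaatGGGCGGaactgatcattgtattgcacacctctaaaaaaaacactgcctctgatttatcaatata
Tfap2a: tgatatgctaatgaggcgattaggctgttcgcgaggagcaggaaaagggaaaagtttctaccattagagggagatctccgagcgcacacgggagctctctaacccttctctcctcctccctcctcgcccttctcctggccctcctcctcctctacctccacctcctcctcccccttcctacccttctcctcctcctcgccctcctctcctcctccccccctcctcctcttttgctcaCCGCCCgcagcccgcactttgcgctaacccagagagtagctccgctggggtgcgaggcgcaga
The Krt5 window held none of the 4 motifs, and of the 300 bases 57.7% were G or C with 6 CpG pairs. The Epcam window held ACCGGT at 2 places and GGGCGG once, and ACCGGT occurs in 2.66% of 21262 promoter windows of protein-coding genes. The Sp8 window was rich in CpG, with 32 pairs against a median of 13 over all windows, and held 1 GGGCGG, a motif found in 46.2% of windows. The Tfap2a window held 1 GGGCGG and 15 CpG pairs. A match is a description of these letters, and shows no binding. A loose core of the p53 family site, bound by proteins such as the Trp63 product, was also searched and lay in 6 of 9 member windows and 75.1% of all windows. Of the 10 genes 6 have entries in the promoter table, and Trp63, Cdh1, Grhl2 and Sp6 do not.

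Peaks in these genes lay at middling or low places in their lists, apart from the broad peak of Tfap2a in each list. Of all peaks in the genes or their 1 kb flanks, those of Tfap2a included, 10 of 19, 9 of 14, 13 of 14 and 8 of 19 were below percentile 50. The 4 lists merged into 62 regions over the 10 windows, and 20 of them (32.3%, Wilson 95% interval 22.0 to 44.6%) were marked in every list, against 40.1% of 49367 regions over the genome. The intervals cover counting error only. Of the 62 regions, 30 lay in a member gene or its 1 kb flanks, 14 at another protein-coding gene and 18 in intergenic sequence. Of the 30 regions in the genes themselves, 6 (20%, interval 9.51 to 37.3%) were in all lists and 13 in 1 list alone. Of the 14 at neighbouring genes, 8 (57.1%, interval 32.6 to 78.6%) were in all lists. Peaks in the genes themselves had median score percentiles of 34.8, 46.8, 26.8 and 51.5, and peaks at neighbouring genes 75.9, 58.1, 65.0 and 76.0.

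Among members with a peak in the gene or its 1 kb flanks (8, 6, 5 and 8 of 10, against 63.7, 59.7, 58.0 and 64.3% of all genes), the median percentile of the best-scored such peak was 57.3, 54.2, 43.3 and 61.3. Over all genes with such a peak the medians were 81.3, 78.1, 75.5 and 81.9. In each list 1 member, Tfap2a, lay above the median of all genes. The plot of regions by list shows the Tfap2a region beside the lower-scored others.

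**Figure D1:**
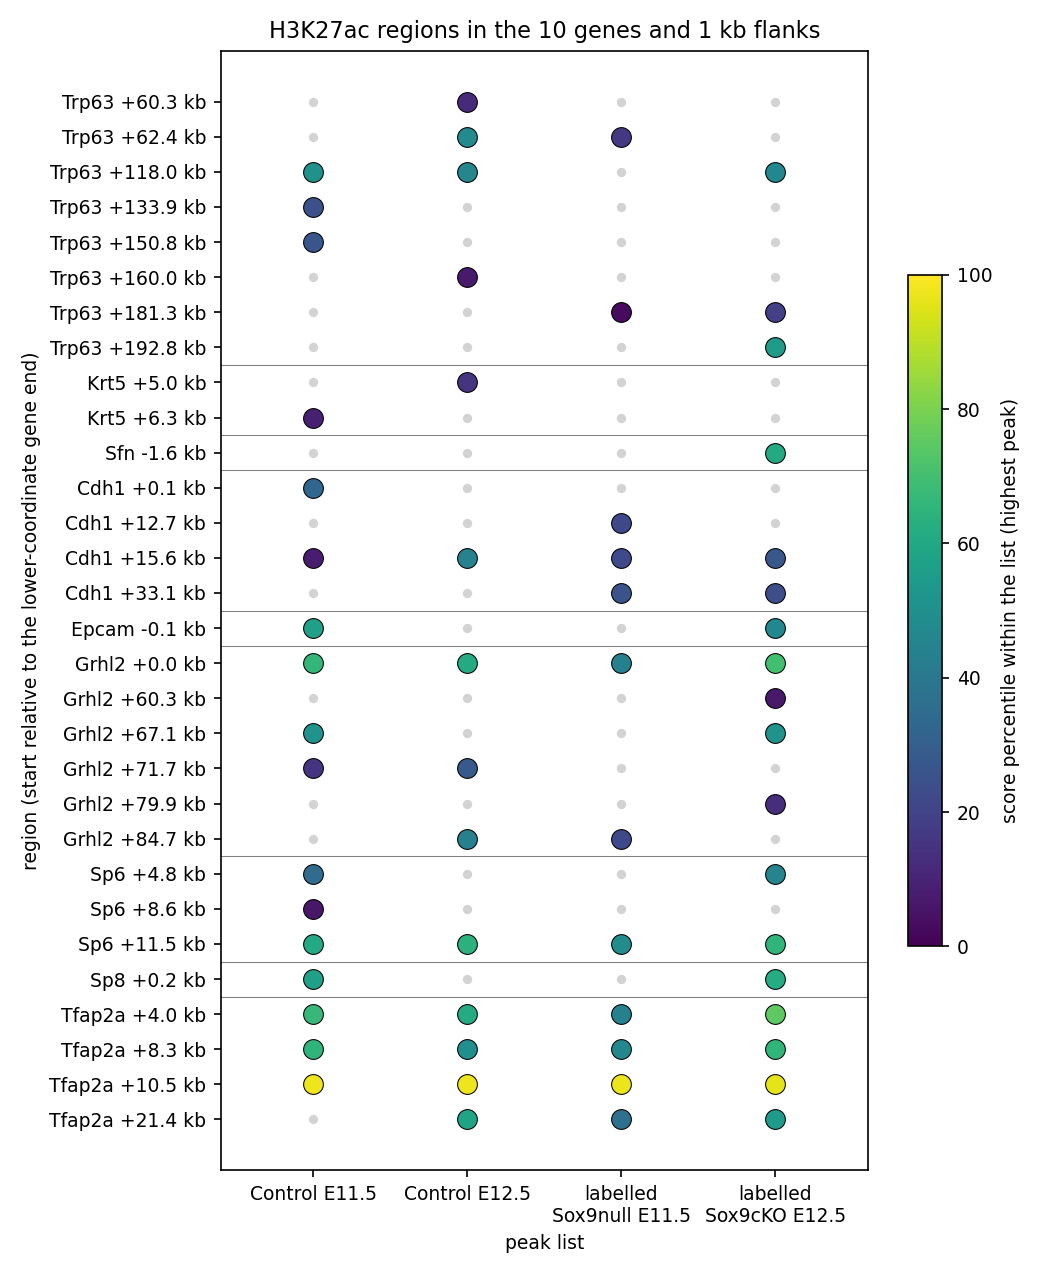
Each row is 1 of the 30 regions in a member gene or its 1 kb flanks, named by its start in kb from the lower-coordinate gene end, and each column is a peak list. Filled circles are peaks coloured by the score percentile of the highest peak within the list, and small grey dots mark no peak; among these rows the broad Tfap2a region is the one at percentile 95.8 or above in every list, and 13 rows have a single filled circle.

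Tfap2a encodes AP-2 alpha, an early regulator of surface ectoderm that is also active in neural crest and limb mesenchyme. It lies at chr13:40713802-40738238, on the minus strand, and peaks covered 45.8, 63.4, 62.1 and 69.1% of the gene and its 1 kb flanks. A broad region at chr13:40724307-40735119 held peaks of 7652, 10155, 8355 and 9877 bp at percentiles 97.4, 97.6, 97.1 and 95.8, the tied score in all but the list labelled Sox9null. In these lists 97, 135, 196 and 79 peaks were wider. The noncoding gene Gm26688 lies at this region and at the 5′ region below, so the marking cannot be credited to Tfap2a alone. Both annotated starts of the promoter table lie at the broad region, and the printed window was wholly covered in every list. A pair of regions nearer the 3′ end, starting 3.995 and 8.285 kb from the lower-coordinate end, was also marked in every list, at percentiles from 43.2 to 75.0.

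The 5′ end of Tfap2a differed. A region at chr13:40735157-40738388 was free of peaks in Control E11.5. In Control E12.5 it held a peak of 2999 bp at percentile 58.4. The list labelled Sox9null had peaks of 883 and 1611 bp there, at 3.58 and 37.0, and the list labelled Sox9cKO had peaks of 1868 and 1351 bp, at 54.3 and 51.5. The window of gene body plus 50 kb was covered over 14.3, 21.7, 17.9 and 19.8 kb, lowest in Control E11.5. Outside the gene, a region 10.2 kb past the lower-coordinate end was marked in every list, at percentiles 53.1, 50.8, 36.6 and 26.4.

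Grhl2 encodes a Grainyhead-like factor that keeps epithelial junction genes active. It lies at chr15:37232821-37363569, and a region at its lower-coordinate end, chr15:37232851-37235001, was marked in every list. The noncoding gene Gm16136 lies there too. Its peaks were 1749, 1650, 1506 and 1959 bp wide, at percentiles 66.4, 61.0, 43.3 and 69.8. The other regions inside the gene, 5 in all, were each in 1 or 2 lists. The one 67.1 kb into the gene was in Control E11.5 and the list labelled Sox9cKO, at percentiles 51.2 and 51.4. The one 84.7 kb into the gene was in Control E12.5 and the list labelled Sox9null, at 43.3 and 22.0. Window coverage was 4.96, 7.58, 2.43 and 7.91 kb, lowest in the list labelled Sox9null.

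Trp63 encodes p63, the factor that commits ectoderm to a stratified epithelium, and uses an outer and an internal start. It lies at chr16:25683763-25892088, neither gene end had a peak in any list, and all 8 regions of its window were inside the gene. None of them was in all 4 lists. The most shared, at chr16:25801731-25804050, lay 118 kb into the gene and had peaks in both controls (1736 and 2244 bp, percentiles 51.1 and 46.2). The list labelled Sox9cKO had one too (2164 bp, 46.6) and the list labelled Sox9null had none. Its Trp63 peaks were 1190 and 926 bp wide, at percentiles 16.1 and 3.05. The internal start is not placed in the tables used here, so the region was not assigned to it. Window coverage was 3.21, 5.92, 2.12 and 4.78 kb.

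Sp8 had a peak over its start in some lists and none in others. Sp8, which the ridge needs to express Fgf8, lies at chr12:118846288-118852578 on the plus strand. In Control E11.5 a peak of 2003 bp at percentile 57.3 covered the later annotated starts, and another of 654 bp at 27.7 lay inside the gene past them. In the list labelled Sox9cKO a single peak of 3535 bp at percentile 61.6 spanned both stretches. Control E12.5 and the list labelled Sox9null had no peak in the gene. Of its annotated starts, the windows of the later pair were wholly covered in the former lists and free of peaks in the latter, and the window of the first start was reached by no list. A region 8.05 kb from the lower-coordinate end, chr12:118854342-118855676, was in every list, but at percentiles 61.8, 9.61, 5.91 and 65.3. The same lists were high at the gene and at the region beyond it. Window coverage was 3.93, 1.11, 0.701 and 5.57 kb. The lists high for Sp8 are the ones with broad Tbx5 marking and with less Tbx4 window coverage. Pitx1 coverage had no such order, and Tbx4 and Pitx1 were marked at the tied score in every list. The part of limb type in the Sp8 values was not tested.

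Sp6, which acts with Sp8 in the ridge, lies at chr11:97013569-97024739 among active genes. A region just outside its upper-coordinate end, chr11:97025062-97026597, was in every list, with peaks of 1289, 1394, 1536 and 1307 bp at percentiles 60.4, 63.9, 47.7 and 64.9. The noncoding gene Gm11532 lies there too, so the marking cannot be credited to Sp6 alone. Inside the gene, a region at +4.75 kb was in Control E11.5 and the list labelled Sox9cKO, at percentiles 34.8 and 45.2. Control E11.5 alone had a peak at +8.57 kb, at percentile 5.99. The Sp6 window was covered over 11.6, 15.0, 11.6 and 16.1 kb, against 1.73, 0.611, 0.678 and 1.77 kb in the gene and its 1 kb flanks. Of the 10 regions in the window, 5 lay at the neighbouring genes Sp2, Scrn2, Lrrc46, Mrpl10 and Osbpl7.

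**Figure D2:**
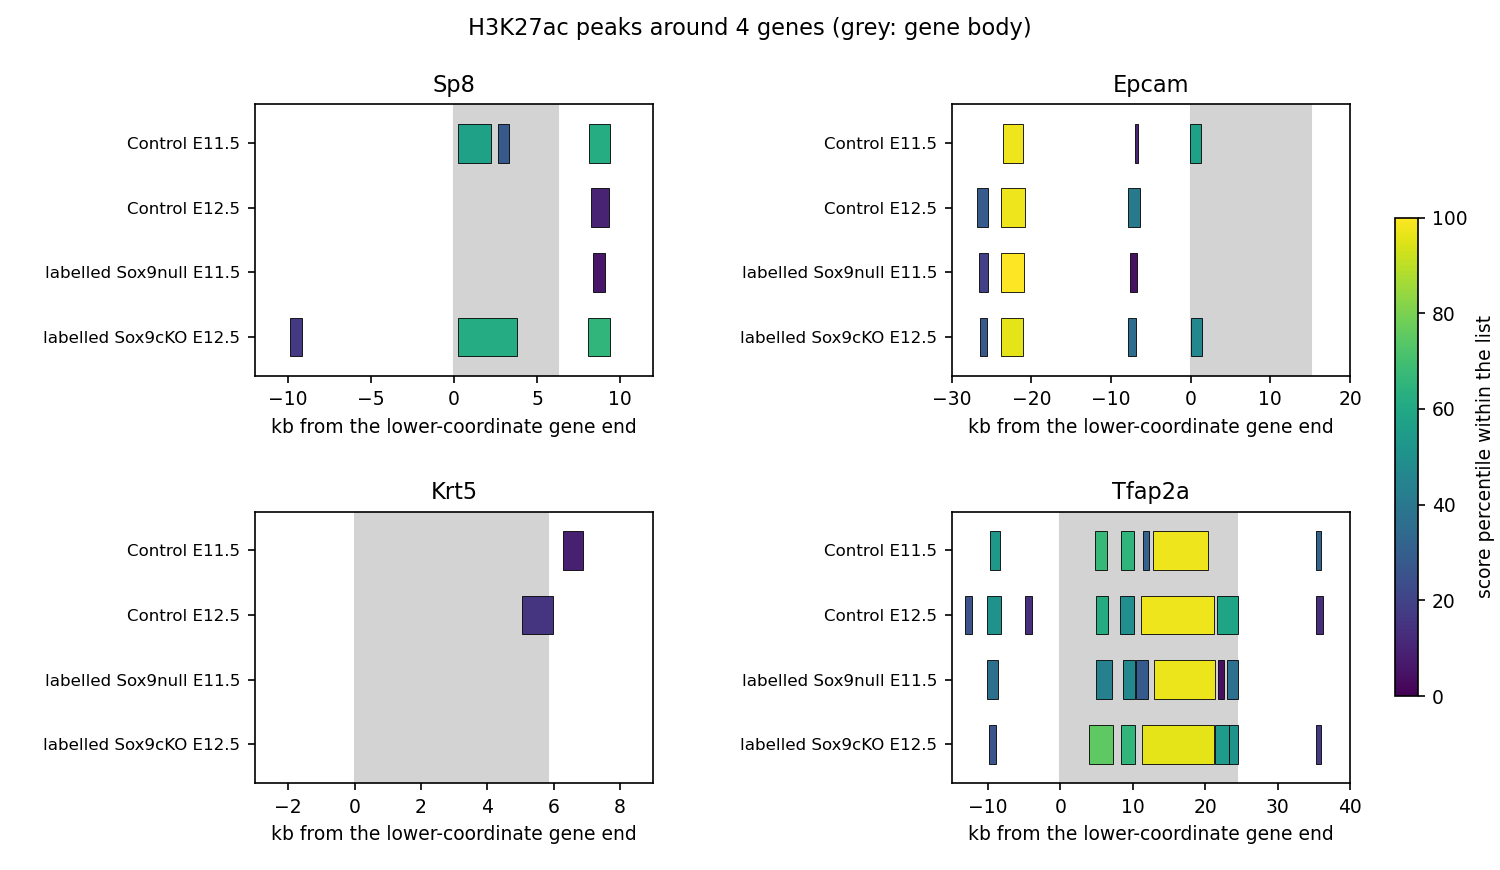
Peaks (boxes) in the 4 lists around Sp8, Epcam, Krt5 and Tfap2a, drawn against the distance in kb from the lower-coordinate gene end, with the gene body in grey and colour giving the score percentile within the list. Sp8 and Epcam have a peak at the gene start in Control E11.5 and the list labelled Sox9cKO, Krt5 has 1 weak peak in each control, and Tfap2a has a broad top-scored peak in all lists.

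Epcam, a homophilic adhesion protein of simple epithelia, lies at chr17:87635979-87651127 on the plus strand. Its start carried a peak of 1336 bp at percentile 57.4 in Control E11.5, and a peak of 1306 bp at 46.8 in the list labelled Sox9cKO. The latter began at position 87636031, just past the printed window, while the former covered 48.3% of it. Neither Control E12.5 nor the list labelled Sox9null had a peak in the gene. The Epcam and Sp8 starts had their peaks in the same pair of lists, and 6.45% of 49367 regions over the genome were in that pair alone. The highest-scored peaks of the window lay outside the gene. The region chr17:87612105-87615125, next to the noncoding gene Gm46609, was at percentiles 97.4, 97.6, 99.8 and 95.8 (ties in all but the third value). Window coverage was 6.54, 8.13, 7.03 and 8.34 kb, without the split seen at the start. The split of lists appeared with 20 kb flanks (1.798, 1.579, 0.873 and 2.29 kb), among peaks in the upper 50% by score, and after scaling.

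Cdh1 encodes E-cadherin, the adhesion molecule of epithelial junctions. It lies at chr8:106603350-106670247, and its lower-coordinate end had a peak of 817 bp in Control E11.5 alone, at percentile 32.5. A region inside the gene at +15.6 kb was in every list, with peaks of 764, 1592, 1216 and 1037 bp at percentiles 8.09, 44.4, 22.4 and 27.1. A region at +33.1 kb was in both Sox9-deficient lists and neither control, with peaks of 1384 and 864 bp at percentiles 25.5 and 24.1. Window coverage was 3.53, 3.80, 5.07 and 4.62 kb, with both deficient lists above both controls. Over all genes 12.7% had that order. Cdh1 did not have it with 20 kb flanks or among peaks in the upper 50% by score.

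Krt5 was marked in both controls and neither deficient list, by peaks that did not overlap. Krt5 lies at chr15:101707069-101712905 on the minus strand. Control E12.5 had a peak of 954 bp over the start, with score 76.43 at percentile 15.4. Control E11.5 had a peak of 608 bp, with score 55.09 at percentile 8.97, that began 0.453 kb upstream of the gene. The lowest scores in the lists were 50.01 to 50.03, so both peaks were near the calling limit. By coverage, both deficient lists lay below both controls (0.608, 0.954, 0 and 0 kb), an order seen in 5.16% of all genes. When every list was cut to the length of the shortest, 0 of the 10 genes had this order.

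Krt14 had no peak of its own, and Sfn had one in 1 list. Krt14, at chr11:100203162-100207510, had no peak within the gene or its 1 kb flanks in any list. Its window held 2 peaks, both in the list labelled Sox9cKO, of 519 and 499 bp at percentiles 7.82 and 2.97. They began at -47.7 and -37.7 kb from the lower-coordinate end, the latter at the noncoding gene Gm39022. Sfn, at chr4:133600556-133602168, was reached by 1 peak, of 2396 bp at percentile 60.9 in the list labelled Sox9cKO. That peak covered the 3′ part of the gene and stopped short of the start window. Sfn window coverage was 5.45, 4.62, 4.41 and 7.33 kb, and regions at Gpatch3, Gpn2 and Zdhhc18 were in every list.

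**Figure D3:**
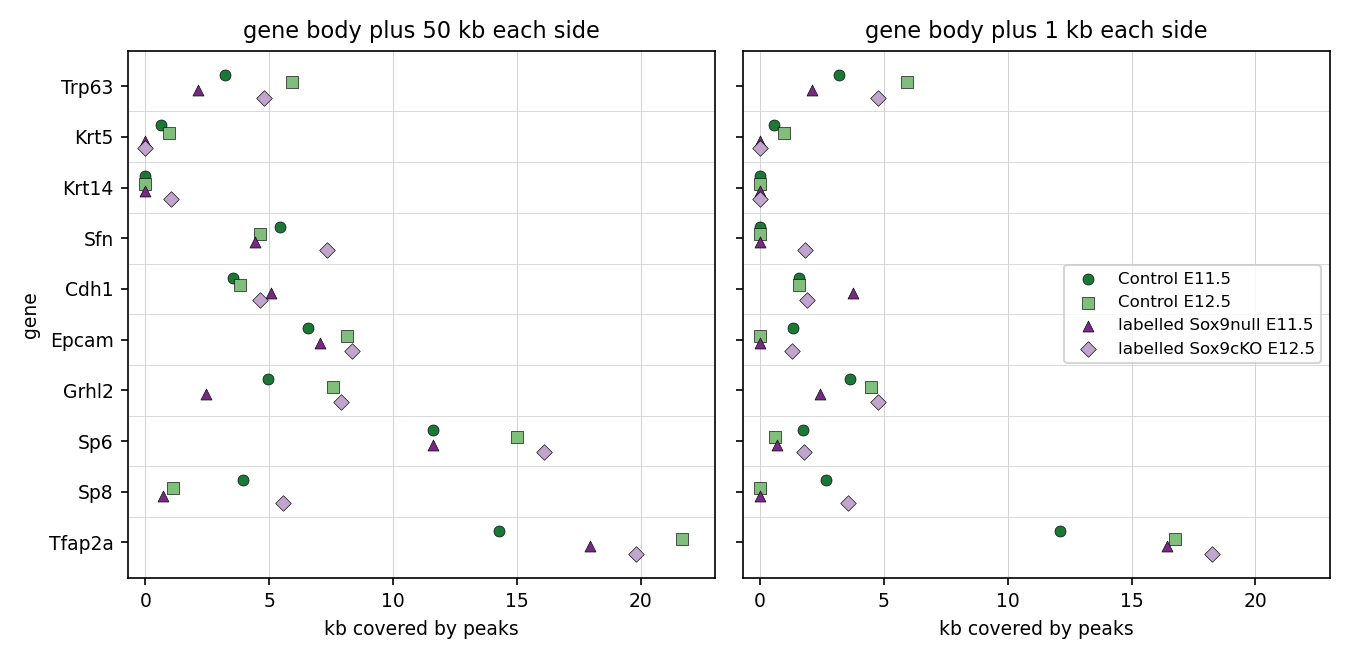
Kb covered by H3K27ac peaks for each gene (rows) in each of the 4 lists (symbols), over the gene body plus 50 kb each side (left) and plus 1 kb each side (right). Tfap2a is highest in both panels, on the right Krt14 is at 0 in every list and Sfn in all but the list labelled Sox9cKO (1.83 kb), and the Sp8 symbols of Control E11.5 and the list labelled Sox9cKO lie apart from the other 2.

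Between the controls, coverage of the windows was higher at E12.5 for 7 of 10 genes and lower for 2, with a median difference of 0.965 kb against 0.000 kb over all genes. The E12.5 control also covered more of the genome in total. Taking as called a change of at least 2-fold and 1 kb, 1 gene was called, Sp8, which was lower at E12.5. That rule called 2.93% of all genes lower and 3.94% higher. For the list labelled Sox9null against Control E11.5, Grhl2 and Sp8 were called lower and none higher (3.96 and 2.39% of all genes). For the list labelled Sox9cKO against Control E12.5, Krt14 and Sp8 were called higher and none lower (4.74 and 2.67% of all genes). The Krt14 call rests on 1.018 kb against 0 kb, all of it far from the gene. With 20 kb flanks Krt14 had 0 kb in every list, and scaling brought it to 0.878 kb, below the 1 kb limit. Both comparisons of deficient with control lists share no library, but each control also enters the comparison of stages.

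With the deficient lists exchanged, as their file names have them, Sp8 was no longer called. The list labelled Sox9cKO then stood against Control E11.5, and Krt14 alone was called higher (1.96% of all genes) with none lower (0.489%). The list labelled Sox9null stood against Control E12.5, with Trp63 and Grhl2 called lower (2.53%) and none higher (0.909%). Sp8 and Sfn were covered by more in each of Control E11.5 and the list labelled Sox9cKO than in each of the other two, an order held by 24.1% of all genes. This count of 2 depends on the setting, with 7 members (Trp63, Sfn, Cdh1, Epcam, Grhl2, Sp6 and Sp8) when peaks below the middle of each list are dropped and 4 (Sfn, Epcam, Sp6 and Sp8) with 20 kb flanks. The share of 24.1% is for the main setting, and none is given for these alternatives. Among the 7, Cdh1 had the order through peaks at Tango6 alone. Epcam had it narrowly, with 5.195 kb in the list labelled Sox9cKO against 5.176 kb in Control E12.5. Trp63, Epcam, Grhl2, Sp6 and Tfap2a were covered by more in both lists labelled E12.5 than in both labelled E11.5, which 19.2% of all genes were, and 0 members had the opposite order (2.44%). This count of 5 fell to 1 (Tfap2a) when peaks below the middle of each list were dropped. It fell to 3 (Trp63, Grhl2 and Tfap2a) with 20 kb or 1 kb flanks, and Epcam also lost the order after scaling. The share of 19.2% is likewise for the main setting alone.

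Gene ends were marked for more members in Control E11.5 and the list labelled Sox9cKO. A peak within 1000 bp of a gene end was present for 6, 4, 3 and 6 of the 10 genes, against 56.9, 53.3, 51.9 and 57.7% of all genes. Grhl2 and Sp6 had one in every list, as did 50% of all genes. Epcam and Sp8 had one in Control E11.5 and the list labelled Sox9cKO only, a state of 2.81% of all genes, and no member had one in the other two lists only (0.201%). Krt5 had one in both controls only (0.187%), and Trp63 and Krt14 had none in any list (39.9%). Over the promoter windows, which 6 members have, 3, 2, 1 and 2 were marked, against 56.5, 53.1, 51.7 and 57.4% of all genes with a window.

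Other genes of surface epithelium and ridge, taken by list, were marked unevenly. Of 22 epithelial junction and adhesion genes, 13, 9, 6 and 16 had a peak at a gene end, and 5 of the 22 had it in Control E11.5 and the list labelled Sox9cKO only. Among them was Cldn4, a tight junction claudin, with 1.40, 0, 0 and 0.6 kb in the gene and its 1 kb flanks. Lama5, a chain of the epidermal basement membrane laminin, had 1.92, 1.96, 0 and 3.89 kb. Col17a1, a hemidesmosome collagen, had 0.629, 2.22, 1.20 and 2.80 kb, and Cldn6 had 0.635 kb in the list labelled Sox9cKO alone.

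Of 15 ectoderm transcription factor and splicing genes, 6, 7, 6 and 8 had a peak at a gene end. The epithelial splicing factor gene Esrp1 had 0, 0.849, 0 and 1.61 kb and its relative Esrp2 0.529, 1.73, 0.643 and 1.82 kb. Grhl1, of the Grainyhead-like family, had 0.825 kb in the list labelled Sox9cKO alone, and Hopx had 1.96, 0, 0 and 0.946 kb. Of 7 epithelial keratin genes, 2, 2, 2 and 4 were marked at an end. Krt8, of simple epithelium, had 1.15, 0.993, 1.17 and 1.29 kb, while its partner Krt18 had 0.580 kb and Krt15 0.731 kb in the list labelled Sox9cKO alone. By coverage with 50 kb flanks, 3 of the 7, Krt18 among them, were higher in both Control E12.5 and the list labelled Sox9null (16.0% of all genes). In that measure 0 were higher in both Control E11.5 and the list labelled Sox9cKO (24.1%). Krt19 had no peak of its own in any list.

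Of 19 apical ridge and ectoderm signal genes, several of which are also active in limb mesenchyme, 15, 12, 11 and 16 had a peak at a gene end. Fgf8, the main FGF of the ridge, had 0.661 kb at percentile 23.5 in Control E11.5 and none in the other lists. Wnt3, the ectodermal signal that induces the ridge, had 2.34, 0, 0 and 2.19 kb, and En1, the ventral ectoderm factor, 1.42, 1.67, 0 and 2.49 kb. Jag2, a Notch ligand of the ridge, had 2.24 kb in the list labelled Sox9cKO alone. By coverage with 50 kb flanks, 8 of the 19 were higher in both Control E11.5 and the list labelled Sox9cKO (24.1% of all genes). The reverse order, higher in both Control E12.5 and the list labelled Sox9null, was held by 6 of the 19 (16.0% of all genes). Of 11 genes of keratinised epidermis 3 were marked at an end in every list and 8 in none.

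Genes of other cell types were counted in the same way. A peak at a gene end was present for 4, 3, 3 and 5 of 8 skeletal muscle genes, 3, 2, 2 and 5 of 8 endothelial genes and 3, 1, 1 and 5 of 9 erythroid and macrophage genes. It was present for 4, 3, 3 and 4 of 7 nerve and glia genes and for 1, 0, 0 and 1 of 8 genes of other epithelia. Limb mesenchyme genes had 15, 14, 14 and 15 of 15. The lists with more marked members also had more marked muscle, endothelial and blood genes, and the part of the number of peaks called (36045, 32821, 28419 and 36937) in these counts was not tested.

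**Figure D4:**
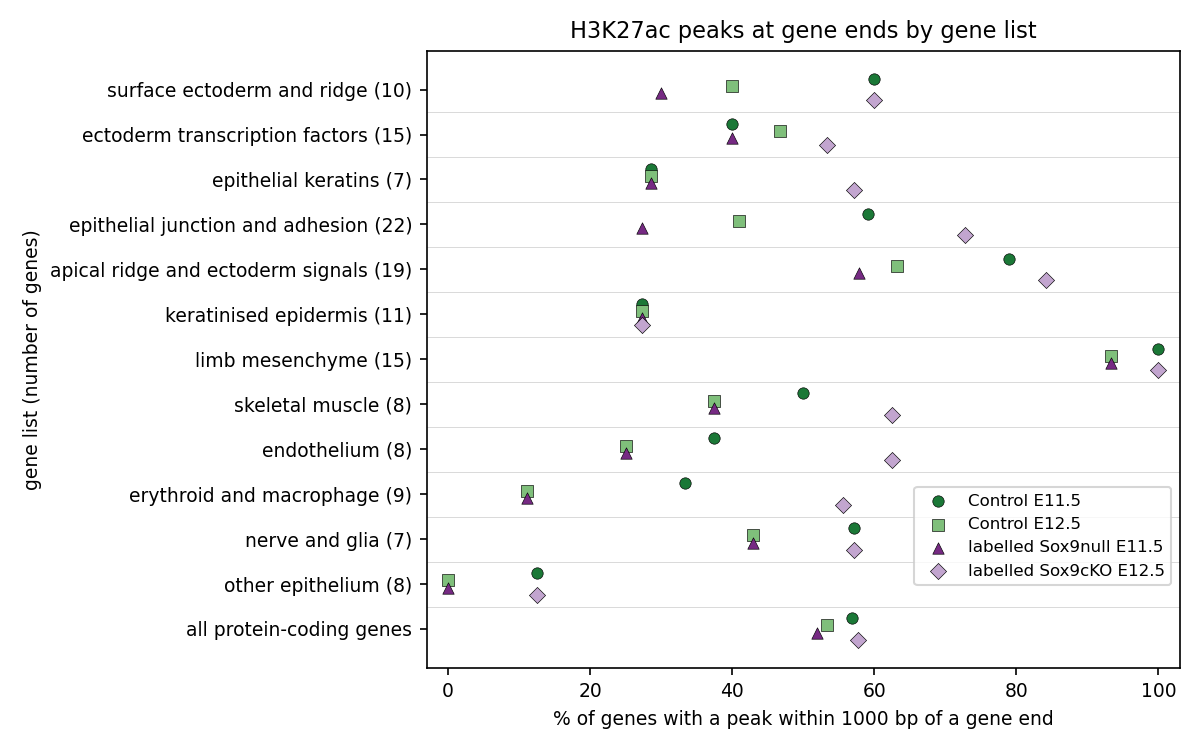
Percentage of genes in each list (rows, number of genes in brackets) with an H3K27ac peak within 1000 bp of a gene end, for the 4 peak lists (symbols), with all protein-coding genes in the bottom row. Limb mesenchyme genes lie at 93.3 to 100%, the 10 ectoderm and ridge genes at 30 to 60%, and in most rows Control E11.5 and the list labelled Sox9cKO lie to the right of the other two.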

How the data were processed

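H3K27ac peak lists of 4 limb bud libraries were used. The deposited lists give position and a score per peak, with no header. Per the labels the peaks belong to single samples, and per the peak names in the files the caller was MACS, while for its version, settings and input use, and for the aligner, the sources used here give nothing. Per the submitters' processing notes reads were placed on mm10, and CASAVA 1.8 and deepTools are named. Scores run from 50.01 to 3233.06 with ties at 3100, and ties took the mean rank.

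Genes came from RefSeq GRCm38.p6, all 10 members and the 129 genes of 11 other lists matched. Of 21883 genes, 17491 had a promoter window. Since the promoter table lacks 4 members, gene ends (within 1000 bp) were used beside it, a choice made after seeing that table. Peaks sharing 1 bp were merged into regions. No test was run, since each group had 1 library. Members and lists were chosen with earlier results of these data known. All 10 members are named, and up to 4 genes of each other list, by differing gene-end state and then by range of covered kb. Alternatives varied score filter, flanks, merging, scaling and the exchange of the deficient lists. Tools were pandas 2.3.3, numpy 2.4.6, matplotlib 3.10.9 and scipy 1.17.1 under Python 3.11.15. Coverage counting was tested on simulated data, with 0 mismatches in 2000 windows.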

Additional observations from a re-analysis of the deposited data

Results flagged for a closer look

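Sp8 was covered by less in the list labelled Sox9null than in Control E11.5, a difference of -3.23 kb in the gene body plus 50 kb each side, and by more in the list labelled Sox9cKO than in Control E12.5, a difference of 4.46 kb. The libraries of the stages moved in opposite directions, and the difference was not tested, since each value rests on 1 library per group. Over all genes 2.89% were called in opposite directions in this way, 632 of 21883. With the deficient lists exchanged Sp8 was not called at either stage.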

How the results depend on the processing

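No paired analysis was possible because each group had 1 library and no test was run. Of 115 alternative values for 30 results, 75 were within 1.5 times the reported one. With peaks in the upper 50% by score alone, window peaks numbered 21, 14, 8 and 25 (in the order of lists used above), regions in all lists 7, covered length 35.97 kb in Control E12.5 and 22.74 kb in the list labelled Sox9null. Under it, members with a marked start numbered 1 in Control E12.5, and with a marked gene end 0 in the list labelled Sox9null. Calls became 2 lower at E12.5 in controls, 4 lower in the list labelled Sox9null and 5 higher in the list labelled Sox9cKO. Under the same filter 0 members kept either order of deficient and control lists. Then 7 were covered by more in both Control E11.5 and the list labelled Sox9cKO, and 1 in both lists labelled E12.5. No share of all genes is given for calls or orders under changed filters, flanks or scaling, so these counts show nothing particular to the members. With the same number of top peaks 0 members were covered by less in both deficient lists. With 100 kb flanks there were 67, 59, 45 and 68 peaks. With 20 kb flanks 1 member was called lower in the list labelled Sox9null and 0 were covered by more in both deficient lists, with 4 and 3 members in those other orders. With the gene body plus 1 kb the covered length was 26.8, 30.3, 25.4 and 38.2 kb, with 3 genes called lower between controls, 1 higher in the list labelled Sox9null 4 higher in the list labelled Sox9cKO, and 3 covered by more in both lists labelled E12.5. Within 1000 or 2500 bp of the start 4 members were marked in the list labelled Sox9cKO. Scaling to the total of each list left 1 gene higher in the list labelled Sox9cKO. With the deficient lists exchanged, the E11.5 comparison gave 1 higher and 0 lower and the E12.5 comparison 0 higher and 2 lower. Alternatives for those other orders were chosen after seeing the data. The causes were not tested. Read depth is unknown, so a missing peak means none was called.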
